A study of Mus musculus with 7 samples.

Results

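Expression of the proteasome genes was described in cholangiocytes, which line the bile ducts, from mice with duct injury. The 48 genes were all rows of the count table, out of 24552 symbols, whose names run from Psma to Psmg followed by a number. Of these, 15 were core genes (Psma, and Psmb1 to Psmb7), 5 immune (Psmb8, Psmb9, Psmb10, Psme1 and Psme2), 20 regulatory (Psmc and Psmd) and 8 were none of these. The cells were EpCAM-positive and came from livers of Foxp3GFPDTR mice, in which Foxp3-expressing regulatory T cells carry the receptor for diphtheria toxin. Every animal was fed DDC, a compound that damages the bile ducts, for 10 days. Animals of the PBS group (4 libraries) received saline, and those of the DT group (3 libraries) received diphtheria toxin at 1 µg/kg, both into the peritoneum every 48 h. There was thus no group without the diet or without the transgene. Age, sex and any pooling of animals are not given in the labels, so p-values measure only how far these libraries spread, and part of that spread may be technical.

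The proteasome is the barrel-shaped protease that breaks down proteins tagged with ubiquitin. Its 20S core stacks rings of alpha subunits, which form the gate, on rings of beta subunits, of which Psmb5, Psmb6 and Psmb7 encode the catalytic ones. The 19S regulatory particle unfolds substrates with ATPases (Psmc) and binds ubiquitin and removes it with non-ATPase subunits (Psmd). Under interferon-gamma, Psmb8, Psmb9 and Psmb10 take the places of Psmb5, Psmb6 and Psmb7 to form the immunoproteasome, which makes peptides suited to MHC class I. The PA28 activator, made of Psme1 and Psme2, is induced by the same signal.

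Total counts per library ran from 4805018 to 6285624. All values below are reads from 3′ ends, given as counts or as CPM (counts scaled to a common library size, with TMM factors), and they are not divided by gene length. Of 18 listed cholangiocyte markers, 15 to 18 had reads in each library. Listed T and NK cell markers summed to 0 to 37.3 CPM in PBS and 0 to 133 CPM in DT, and Foxp3 had 0 counts in all 7 libraries, so the depletion itself cannot be read here. Libraries also differed in macrophage, dendritic and monocyte markers: 4, 10, 4 and 19 of the 23 listed genes had reads in PBS 1 to 4, against 11, 16 and 19 in DT 1 to 3. Their summed level was 164, 380, 303 and 2615 CPM in PBS 1 to 4 against 796, 1366 and 1673 CPM in DT 1 to 3. Adgre1, Itgax and Ccr2 were at 0 in every library. Reads of Y-linked genes were present in PBS 1 and in all 3 DT libraries. The part of these differences in the results was not tested except where a fit with them is given. The fit with Y-linked reads sets the DT libraries against PBS 1 alone.

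Promoters are shown for 4 immune genes and for Psma3 and Psmd14, the 2 members that passed the threshold in any fit described below. Each window runs from 250 bases before to 50 bases after the RefSeq start site, on GRCm38.p6, another build than the mm9 of the counts. Capitals mark 5 motifs searched on both strands: the antioxidant response element core TGACNNNGC, the interferon regulatory factor element GAAANNGAA, the gamma-activated site TTCNNNGAA, the CCAAT box CCAAT and the GC box GGGCGG.
Psmb8, chr17:34197945-34198244, plus strand: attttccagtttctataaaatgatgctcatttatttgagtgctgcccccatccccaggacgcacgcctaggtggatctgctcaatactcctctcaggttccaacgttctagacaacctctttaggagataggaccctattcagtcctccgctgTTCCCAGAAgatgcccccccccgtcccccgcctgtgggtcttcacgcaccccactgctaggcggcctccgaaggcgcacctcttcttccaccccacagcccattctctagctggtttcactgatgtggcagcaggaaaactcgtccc
Psmb9, chr17:34187281-34187580, minus strand: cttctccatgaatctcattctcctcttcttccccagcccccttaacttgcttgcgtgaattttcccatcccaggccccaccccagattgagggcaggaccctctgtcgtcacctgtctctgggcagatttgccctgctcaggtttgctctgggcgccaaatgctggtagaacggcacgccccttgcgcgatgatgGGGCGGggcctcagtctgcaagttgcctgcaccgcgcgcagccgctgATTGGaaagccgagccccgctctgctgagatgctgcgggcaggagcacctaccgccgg
Psmb10, chr8:105938343-105938642, minus strand: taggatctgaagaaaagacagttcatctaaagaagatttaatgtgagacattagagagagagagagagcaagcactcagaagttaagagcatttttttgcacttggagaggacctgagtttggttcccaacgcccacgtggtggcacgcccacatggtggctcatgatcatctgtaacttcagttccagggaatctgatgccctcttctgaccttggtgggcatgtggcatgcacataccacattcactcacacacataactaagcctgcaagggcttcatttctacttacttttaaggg
Psme1, chr14:55578244-55578543, plus strand: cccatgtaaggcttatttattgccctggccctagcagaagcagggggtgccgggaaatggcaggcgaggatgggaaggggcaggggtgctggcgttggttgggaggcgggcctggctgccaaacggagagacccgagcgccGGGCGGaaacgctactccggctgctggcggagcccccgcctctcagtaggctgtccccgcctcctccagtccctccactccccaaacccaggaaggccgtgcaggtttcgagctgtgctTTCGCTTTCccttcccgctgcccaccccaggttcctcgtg
Psma3, chr12:70974373-70974672, plus strand: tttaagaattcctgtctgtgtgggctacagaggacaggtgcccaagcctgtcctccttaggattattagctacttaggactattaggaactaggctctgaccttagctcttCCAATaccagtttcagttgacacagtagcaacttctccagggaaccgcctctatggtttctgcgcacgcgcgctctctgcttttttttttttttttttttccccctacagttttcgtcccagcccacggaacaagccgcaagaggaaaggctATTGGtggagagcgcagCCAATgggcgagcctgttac
Psmd14, chr2:61711444-61711743, plus strand: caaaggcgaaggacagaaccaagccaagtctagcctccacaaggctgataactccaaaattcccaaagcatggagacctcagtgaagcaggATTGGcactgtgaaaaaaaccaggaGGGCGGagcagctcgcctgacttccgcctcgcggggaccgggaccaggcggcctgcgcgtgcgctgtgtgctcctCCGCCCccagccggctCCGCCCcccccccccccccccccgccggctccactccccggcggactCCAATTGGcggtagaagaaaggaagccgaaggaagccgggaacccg

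Psmb8 held a gamma-activated site, with letters TTCCCAGAA, that began 97 bases before the start. Psme1 held an interferon regulatory factor element, read as TTCGCTTTC on this strand, in the bases after the start. Psmb9 held a GC box and a CCAAT box, and the gene Tap1, which encodes a peptide transporter of MHC class I loading, starts within the same window. Psmb10 held none of the 5 motifs in this window. Psme2, the 1 immune gene not shown and the 1 with a negative log2 fold change, held GC boxes alone. Psma3 held 3 CCAAT matches, and in Psmd14 CCAAT matches on both strands overlap as CCAATTGG. Of the 48 members, 40 matched the promoter table. The gamma-activated site was in 1 of 5 immune, 0 of 11 core and 1 of 17 regulatory genes, and in 9.55% of the 27025 genes in that table. The interferon regulatory factor element was in 1 of 5 immune, 2 of 11 core and 3 of 17 regulatory genes, against 9.76% of all genes. The antioxidant response core was in Psmb5 and Psmb6 of the core genes, in Psmc6, Psmd9 and Psmd12, in Psme4, and in 0 of 5 immune genes, against 14.0% of all genes. GC boxes were in 13 of 17 regulatory, 5 of 11 core and 3 of 5 immune genes (38.2% of all genes), and CCAAT boxes in 5, 6 and 1 of them (41.1% of all genes). These matches describe letters in the windows and do not show binding.

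Proteasome genes together took a larger share of the reads in every DT library than in every PBS library, while no single member passed the edgeR test. The 48 genes held 0.491%, 0.529%, 0.543% and 0.486% of all reads in PBS 1 to 4 against 0.639%, 0.624% and 0.637% in DT 1 to 3. On the CPM scale their sum was 5067 ± 322 in PBS (SD, n = 4) and 6443 ± 510 in DT (SD, n = 3), a ratio of 1.27. As a sum over chosen genes it was given no test. Hepatocyte markers were also higher on average in DT: 10 of 11 tested had positive log2 fold changes (median 0.79), and the 24 listed genes summed to 2282 to 3879 CPM in PBS and 3837 to 5730 CPM in DT, and their part in the result was not tested. In bulk libraries such as these, a change in the kinds of cells collected and a change in RNA per cell cannot be told apart. Mean CPM was higher in DT for 30 members and lower for 16. The summed difference of 1376 CPM is net of the decreases. Psmd14, Psma3, Psma7, Psme1 and Psmd3, the 5 with the largest difference, equaled 61.2% of this net value and a smaller share of the increases alone. Psmc6 (132 CPM) and Psma1 (123 CPM) were close to Psmd3 (133 CPM).

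**Figure D1:**
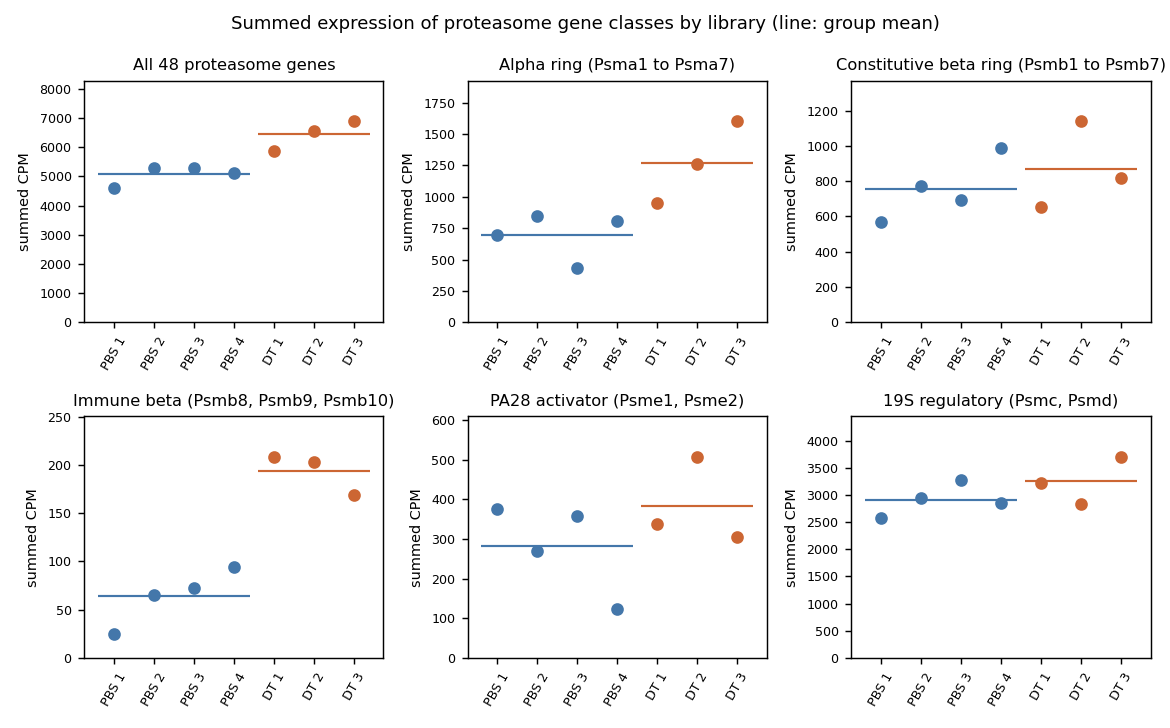
Summed CPM of proteasome gene classes (y axis, from 0) in each library (x axis), with PBS in blue, DT in orange and a line at each group mean. For all 48 genes, the alpha ring and the immune beta subunits every DT library lies above every PBS library, and for the other 3 classes the groups overlap.

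Reads were found for 46 of the 48 genes. Psma8, a testis form of an alpha subunit, and Psmb11, the beta subunit of the thymus, had 0 counts in all 7 libraries, where a count of 0 allows up to 3 reads per library from counting error. The filter on low counts kept 44 genes, and the others with reads, Psmd9 and Psmg1, were not tested. Of the tested genes 29 (65.9%) had a log2 fold change above 0, where 49.3% of the 7688 tested genes did, and their median was 0.35 against -0.02 over all tested genes. The edgeR quasi-likelihood test with Benjamini-Hochberg adjustment called 0 members higher (background over all tested genes 0%) and 0 lower (background 0.039%). At an unadjusted p under 0.05 it gave 1 member higher, Psma3 (background 1.39%), and 0 lower (background 2.11%). DESeq2 called that 1 member higher (background 0.377%) and 0 lower (background 1.07%). Limma-voom called 0 higher (background 0.195%) and 0 lower (background 0.078%), and 6 were higher at an unadjusted p under 0.05 (background 5.19%). These 6 were Psma3, Psmb10, Psmc6, Psmd14, Psme1 and Psmf1. With the replicate number as a block in edgeR, 1 was called higher, Psmd14 (background 0.078%). In that fit PBS 4 has no DT partner and does not inform the difference. Every DT library lay above every PBS library for 5 of the 44 (11.4%; background 3.76%), namely Psma3, Psma7, Psmb10, Psmc6 and Psmd14, and below for 0 (background 2.61%).

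Counts of 0 were frequent in single libraries and limit every comparison of a single member. Reads were present in all 7 libraries for 25 members. PBS 1 and PBS 3 each lacked reads for 12 of the 48 genes, DT 1 for 11, PBS 2 for 7, PBS 4 for 6, and DT 2 and DT 3 for 3 each. Of members with a mean of 20 to 50 CPM, 30.0% of values were 0, against 33.5% in other genes of that level. At 50 to 100 CPM these shares were 6.12% and 12.4%. At 100 to 200 CPM, 4.76% of member values were 0, against 2.49% in others. Among the 25 members read in every library, 16 had positive fold changes (64.0%, against 49.9% of 2779 such genes), with a median log2 fold change of 0.18 against -0.0036.

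**Figure D2:**
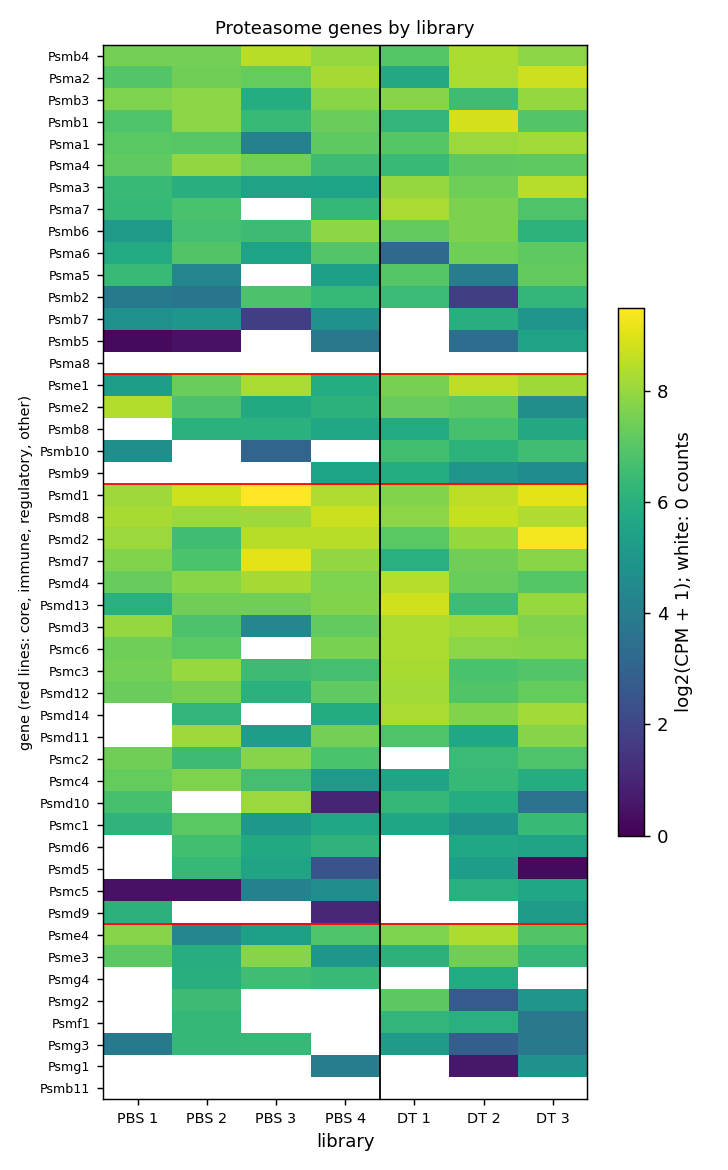
Heat map of log2(CPM + 1) for the 48 genes (rows, grouped as core, immune, regulatory and other, and ordered by mean CPM) in the 7 libraries (columns), with white for 0 counts. White cells lie mostly in the lower rows of each group, and 12 genes are white in PBS 1 and in PBS 3.

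The alpha ring, whose subunits gate the entry to the core, had higher sums in all DT libraries. Psma1 to Psma7 summed to 695, 846, 429 and 806 CPM in PBS 1 to 4 against 953, 1257 and 1601 CPM in DT 1 to 3, a ratio of means of 1.83. Of the 7 genes, 6 had positive log2 fold changes, and their median was 1.13. Psma3 encodes the alpha subunit with the smallest p of all members. It had 438, 313, 213 and 231 reads in PBS 1 to 4 against 1543, 915 and 1993 in DT 1 to 3. The 2 groups did not overlap, and the highest PBS library was below 100 CPM while the lowest DT library was at 167 CPM. The log2 fold change was 2.14 (SE 0.81), and it did not pass by edgeR (adjusted p = 1.00, unadjusted p = 0.0120), while it did by DESeq2 (2.11, adjusted p = 0.0422). With any 1 library left out it was between 1.85 and 2.36.

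Psma7 had 420, 561, 0 and 407 reads in PBS 1 to 4 against 1912, 1067 and 680 in DT 1 to 3. All DT values were above the PBS values, but DT 3 (117 CPM) was close to PBS 2 (108 CPM), and the log2 fold change of 1.64 had an SE of 1.17. Psma1 had 687, 673, 83 and 722 counts in PBS and 772, 1458 and 1676 in DT (log2 fold change 1.13, SE 0.77). On the CPM scale DT 1 lay within the PBS range, and PBS 3 was far below the other PBS libraries. Psma2 had 642, 874, 735 and 1547 counts in PBS and 317, 1711 and 2486 in DT, so that the lowest value of all was a DT library (log2 fold change 0.52, and -0.015 without DT 3). Psma4 was the 1 alpha gene with a negative value (-0.42, SE 0.80), with 744, 1256, 872 and 462 counts in PBS and 518, 750 and 817 in DT. Psma5 and Psma6 had log2 fold changes of 1.39 (SE 2.09) and 0.32 (SE 1.32).

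The constitutive beta ring overlapped between the groups. Psmb1 to Psmb7 summed to 567, 772, 694 and 988 CPM in PBS 1 to 4 against 651, 1139 and 819 CPM in DT 1 to 3. Their 7 log2 fold changes had a median of 0.26, and 6 were positive. Psmb4, a structural beta subunit, had 945, 930, 1721 and 1317 counts in PBS and 780, 1723 and 1326 in DT (log2 fold change -0.10, SE 0.55). Psmb1, another structural one, was carried by 1 library: it had 612, 1164, 412 and 824 counts in PBS and 458, 2562 and 709 in DT, and its value of 0.61 was -0.57 without DT 2. Psmb3 had 1054, 1175, 285 and 1166 counts in PBS and 1329, 502 and 1470 in DT (0.08, SE 0.67). Psmb2 had a log2 fold change of 0.02 (SE 2.20).

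The catalytic members were read less evenly. Psmb5, the chymotrypsin-like subunit, had 1, 2, 0 and 68 counts in PBS and 0, 53 and 249 in DT, and its log2 fold change of 2.35 had an SE of 3.28. Psmb6, the caspase-like subunit, had 174, 515, 446 and 1220 counts in PBS and 906, 1070 and 398 in DT (0.26, SE 0.95). Psmb7, the trypsin-like subunit, had 136, 159, 12 and 143 counts in PBS and 0, 328 and 175 in DT (0.48, SE 2.95). The groups overlapped for all 3. In the GRCm38 annotation the last 200 bases of Psmb7 are matched in full on the opposite strand by a transcript of Nek6, so the 2 cannot be told apart unless strand was used in counting.

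The 3 immune beta subunits, whose promoters are shown above, were together higher in every DT library, but none of them alone passed the threshold in any fit. Summed, they were at 25.2, 65.4, 72.6 and 94.4 CPM in PBS 1 to 4 against 209, 203 and 169 CPM in DT 1 to 3, a ratio of means of 3.01. Psmb10 had the largest difference in mean CPM of the 3. It had 133, 0, 37 and 0 reads in PBS 1 to 4 against 597, 380 and 552 in DT 1 to 3, which is 8.17 ± 11.9 CPM (SD, n = 4) and 87.0 ± 15.4 CPM (SD, n = 3). The groups did not overlap, and the DT libraries were close together. The log2 fold change of 3.41 had an SE of 2.71 (edgeR adjusted p = 1.00), and by limma-voom it was 7.05 (adjusted p = 0.310).

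Psmb9 had 0, 0, 0 and 233 reads in PBS 1 to 4 against 354, 165 and 131 in DT 1 to 3. It was thus read in all DT libraries and in PBS 4. These are also the 4 libraries with the highest macrophage marker sums (796 CPM or more, against at most 380 CPM in PBS 1 to 3), but single markers did not all follow: Cd74 had 527, 778 and 1021 counts in PBS 1 to 3 and 194 in DT 1. In DT 1 the largest counts of the list were those of H2-Eb1 (1434), H2-Aa (1096), C1qb (719) and H2-Ab1 (635). The H2 genes among them encode MHC class II chains. Ptprc, Cd68, Itgam, C1qc and Tyrobp were at 0 in DT 1, so its sum does not measure macrophages alone. The log2 fold change of Psmb9 was 1.71 (SE 3.15), and 10.65 without PBS 4, when all PBS values are 0. It was 4.63 with the marker sum as a covariate. Psmb8 had 0, 339, 322 and 260 counts in PBS and 337, 571 and 303 in DT, and apart from PBS 1 the groups overlapped (log2 fold change 0.65, SE 2.19, and 0.22 without PBS 1).

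**Figure D3:**
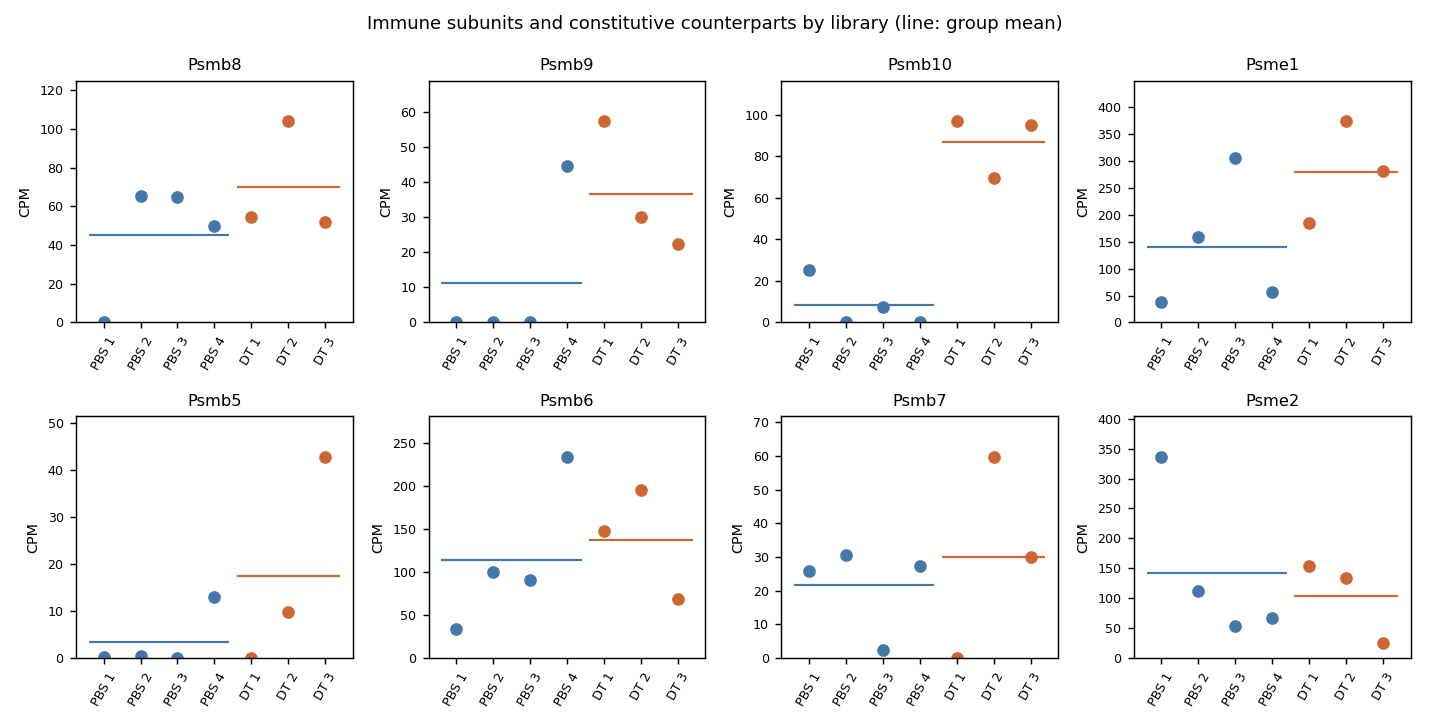
CPM (y axis, from 0, a scale of its own in each panel) of the immune subunits and of the constitutive catalytic subunits in each library, PBS in blue, DT in orange, with lines at group means. Psmb10 separates the groups, Psmb9 is at 0 in PBS 1 to 3 alone, and the other 6 genes overlap.

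As a share of the catalytic beta reads, the immune subunits were higher on average in DT, with overlap. Psmb8, Psmb9 and Psmb10 made up 30.0%, 33.4%, 43.9% and 25.6% of the reads of these plus Psmb5, Psmb6 and Psmb7 in PBS 1 to 4, against 58.7%, 43.5% and 54.5% in DT 1 to 3. DT 2 (95% Wilson interval 41.6% to 45.4%, of 2567 counts) lay just below PBS 3 (40.6% to 47.4%, of 817 counts). The group means were 33.2% ± 7.82 (SD, n = 4) and 52.2% ± 7.87 (SD, n = 3). The difference between these means was 15.8 to 23.4 percentage points with any 1 library left out. Within the pairs of partners the share was erratic: Psmb10 made up 49.4%, 0%, 75.5% and 0% of Psmb10 plus Psmb7 in PBS 1 to 4 against 100%, 53.7% and 75.9% in DT 1 to 3. Because PCR copies are not independent molecules, the intervals and the limit for a count of 0 cover counting error only.

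**Figure D4:**
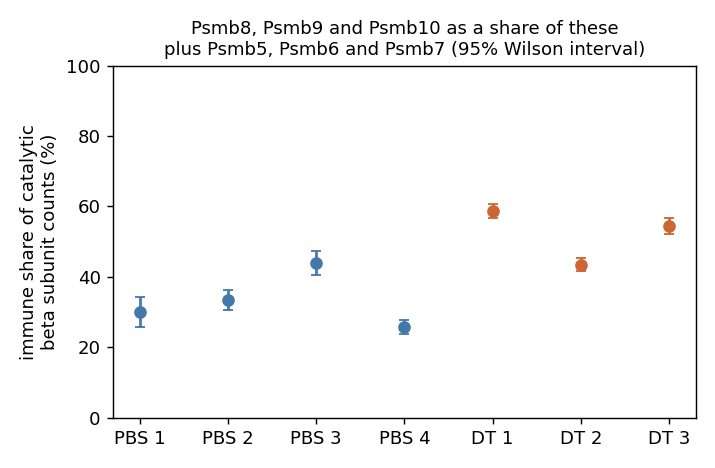
Share of Psmb8, Psmb9 and Psmb10 in the reads of the 6 catalytic beta genes (y axis, percent) in each library (x axis), with 95% Wilson intervals. DT 1 and DT 3 lie above all PBS libraries, and DT 2 (43.5%) is level with PBS 3 (43.9%).

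The PA28 subunits went in different directions. Psme1, whose promoter window held the interferon regulatory factor element, had 205, 820, 1511 and 299 reads in PBS 1 to 4 against 1136, 2051 and 1636 in DT 1 to 3. The PBS libraries spanned a wide range, and PBS 3 (306 CPM) was above DT 1 and DT 3. The log2 fold change was 1.01 with an SE of 0.65 (unadjusted p = 0.127 and adjusted p = 1.00 by edgeR). Psme2 had 1776, 581, 260 and 348 counts in PBS and 944, 734 and 142 in DT (-0.45, SE 0.97). Its highest value was PBS 1 and its lowest DT 3, and without PBS 1 the log2 fold change was 0.43. The proteins form 1 ring together, yet Psme1 made up 10.3% to 85.3% of the reads of the pair in PBS and 54.6% to 92.0% in DT. The 3′ end of Psme2 is identical over 200 bases to that of Psme2b, which had 0 to 266 counts, so reads of Psme2 may have been split between them. Over all 5 immune genes the median log2 fold change was 1.01, with 4 positive, 1 negative and 0 called. Their sum averaged 346 ± 94.2 CPM in PBS against 577 ± 121 CPM in DT. The libraries did not overlap, with 431 CPM in PBS 3 and 475 CPM in DT 3 as the nearest. Without Psme1 the sums overlapped, at 125 to 362 CPM in PBS and 194 to 362 CPM in DT. With the macrophage marker sum as a covariate the median of the 5 was 1.42.

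The regulatory particle showed no common direction. Of 19 tested Psmc and Psmd genes, 10 had positive and 9 negative log2 fold changes, with a median of 0.02. Their sum averaged 2914 ± 294 CPM in PBS against 3255 ± 439 CPM in DT, and the libraries overlapped. The ATPases, which thread the substrate into the core, summed to 734, 815, 456 and 510 CPM in PBS 1 to 4 against 713, 595 and 645 CPM in DT 1 to 3. Among them Psmc6 had 869, 690, 0 and 992 counts in PBS and 1945, 1239 and 1279 in DT, so that every DT library was higher (1.06, SE 1.52). Psmc2 had a negative value, from 890, 463, 1069 and 576 counts in PBS and 0, 483 and 673 in DT (-1.10, SE 1.26, and -0.54 without DT 1). Psmc3 had 946, 1345, 441 and 529 counts in PBS and 1877, 592 and 704 in DT (0.18, and -0.48 without DT 1).

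Psmd14, which encodes the deubiquitinase of the lid, had the largest gap among regulatory genes. It had 0, 389, 0 and 289 reads in PBS 1 to 4 against 1890, 1134 and 1649 in DT 1 to 3, which is 32.6 ± 38.5 CPM (SD, n = 4) and 265 ± 52.2 CPM (SD, n = 3). All DT libraries were above 200 CPM and all PBS libraries at or below 75.0 CPM. Its log2 fold change was 3.03 (SE 2.09, edgeR adjusted p = 1.00) and lay between 2.60 and 3.84 with any 1 library left out. Psmd3, a structural lid subunit, had 1325, 589, 98 and 770 counts in PBS and 1951, 1536 and 1181 in DT (1.00, SE 0.67), with PBS 1 within the DT range on the CPM scale.

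The 3 best-read regulatory genes had log2 fold changes smaller than their SEs. Psmd1, a scaffold of the base, had 1419, 2303, 3519 and 1702 counts in PBS and 1257, 2003 and 3122 in DT (-0.24, SE 0.43). Psmd8, a lid subunit, had 1569, 1369, 1346 and 2181 counts in PBS and 1406, 2165 and 1906 in DT (0.02, SE 0.46). Psmd2, the other scaffold of the base, had 1399, 491, 1748 and 1846 counts in PBS and 811, 1393 and 3776 in DT (0.37, SE 0.52), and without DT 3 it was at -0.47. For each of the 3 the groups overlapped. The lowest p among negative members was that of Psmd7, a lid subunit that was chosen with its values known, with 1088, 565, 2669 and 1280 counts in PBS and 391, 939 and 1294 in DT (-0.85, SE 0.61, edgeR adjusted p = 1.00).

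Assembly factors, alternative activators and the inhibitor overlapped between the groups. Psmd10, a chaperone of the base also known as gankyrin, had 557, 0, 1301 and 5 counts in PBS and 489, 315 and 66 in DT (-0.90, SE 1.92). Psmd5, another base chaperone, had 0, 417, 227 and 23 counts in PBS and 0, 213 and 1 in DT, and Psmd9, a further one, had 350, 0, 0 and 6 in PBS and 0, 0 and 203 in DT. The chaperones of core assembly Psmg2, Psmg3 and Psmg4 had log2 fold changes of 1.34, -1.19 and -1.72, each with an SE above 2. Psmg2 had reads in 1 of 4 PBS libraries (464 counts in PBS 2) and in all DT libraries (824, 30 and 175). Psme4, the nuclear activator PA200, had 1136, 102, 200 and 605 counts in PBS and 1215, 1755 and 693 in DT (1.12, SE 0.83). Psme3, the nuclear PA28 gamma, had 713, 306, 1077 and 163 counts in PBS and 419, 933 and 456 in DT (-0.06, SE 1.11). Psmf1, which encodes the inhibitor PI31, had 0, 403, 0 and 0 counts in PBS and 457, 348 and 75 in DT (1.37, SE 2.90). Its 1 PBS library with reads was as high as the DT libraries.

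**Figure D5:**
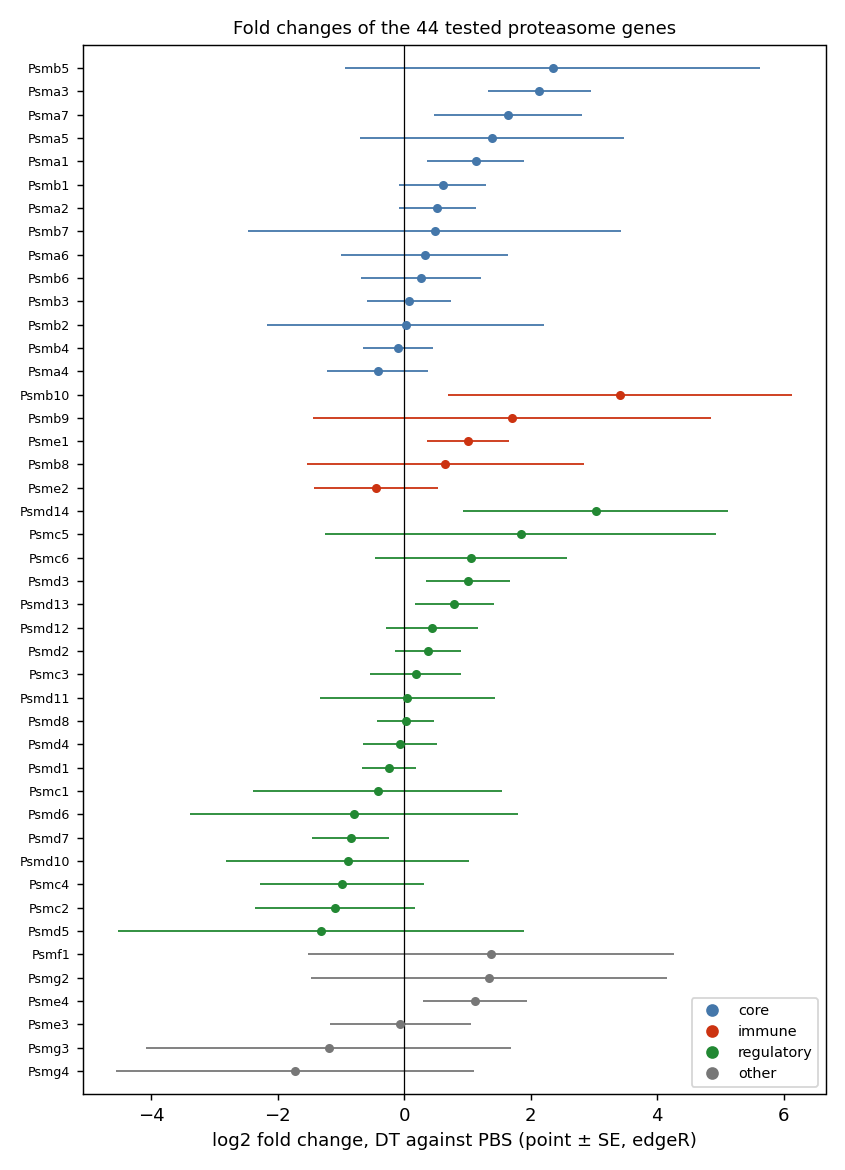
Log2 fold changes of the 44 tested genes in DT against PBS (x axis), points with SE bars from edgeR, colored by class (y axis, genes ordered within class). Core genes lie mostly to the right of 0 (12 of 14), regulatory genes on both sides (10 and 9), and the SE runs from 0.43 (Psmd1) to 3.28 (Psmb5).

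Between the classes, core genes had 12 of 14 positive log2 fold changes and a median of 0.50, immune genes 4 of 5 and 1.01, and regulatory genes 10 of 19 and 0.02. Among members read in every library the medians were 0.29 (10 core genes), 0.28 (2 immune genes) and 0.02 (11 regulatory genes), and the 3 immune genes left out there each had 0 counts in at least 1 PBS library. With the macrophage marker sum as a covariate the medians of the tested genes were 0.020 for core, 1.42 for immune and 0.02 for regulatory genes. The difference between classes was given no test, since the genes of a class are not independent. Within the core, the alpha ring had a ratio of summed means of 1.83, while in the constitutive beta ring, part of the same particle, it was below that, at means of 755 ± 177 and 870 ± 248 CPM (SD, n = 4 and 3).

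Genes around the proteasome did not pass the test either. Of 24 tested proteasome-associated and ubiquitin pathway genes, 10 had positive and 14 negative log2 fold changes, with a median of -0.14. By edgeR 0 were called in either direction (background 0% higher and 0.039% lower). At an unadjusted p under 0.05, 1 was higher (background 1.39%) and 0 lower (background 2.11%). Pomp, the maturation factor of the core, had 1475, 1315, 1097 and 1693 counts in PBS and 3713, 1253 and 1664 in DT (0.47, SE 0.46). Adrm1, a ubiquitin receptor of the 19S particle, had 0, 2, 144 and 487 counts in PBS and 1454, 226 and 411 in DT (1.91, SE 2.01). Sem1, a small lid subunit that was chosen with its values known, averaged 280 CPM in PBS against 607 CPM in DT, with no overlap (1.12, SE 0.41, edgeR adjusted p = 1.00). Nfe2l1, the transcription factor that raises proteasome genes when the proteasome is impaired, had 510, 1259, 150 and 823 counts in PBS and 1045, 1388 and 1479 in DT (0.78, SE 0.70). Its relative Nfe2l2 (NRF2) had 1337, 3090, 867 and 3974 counts in PBS and 2671, 4713 and 3935 in DT (0.56, SE 0.42), and both overlapped between the groups.

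The interferon pathway, which induces the immune subunits, was mixed. Of 18 tested genes 11 were positive and 7 negative (median log2 fold change 0.07), and 0 were called by edgeR in either direction (background 0% higher and 0.039% lower). At an unadjusted p under 0.05 there were 0 (background 1.39% higher and 2.11% lower). Irf1, the factor that acts on the immune subunit promoters, had 1063, 1432, 2760 and 1503 counts in PBS and 1199, 1249 and 932 in DT (-0.76, SE 0.51). The DT libraries were all above the PBS libraries for 3 of the 18 (background 3.76%), Ifnar2, Jak2 and Gbp2, which were chosen after their values were seen, with log2 fold changes of 2.45, 2.87 and 4.30 (SE 2.71, 1.99 and 2.84). Among MHC class I presentation genes outside the proteasome, 12 were tested and 9 were positive, with a median of 0.52. Of these 0 were called (background 0% higher and 0.039% lower), and 0 had an unadjusted p under 0.05 (background 1.39% higher and 2.11% lower). Tap1, the neighbor of Psmb9 and Psmb8 in the genome, had 0, 194, 325 and 11 counts in PBS and 2, 585 and 114 in DT (0.69, SE 2.80), and was thus read in PBS 2 and PBS 3, where Psmb9 was at 0.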

How the data were processed

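Libraries were made from total RNA of sorted cells with a QuantSeq FWD kit, which reads 3′ ends, per the labels' protocols. The values the authors deposited are raw read counts per gene symbol, from the genome build mm9, per the submitters' processing notes. How reads were aligned and counted, and whether strand or molecular identifiers were used, is not given in the sources used here. Sample titles gave each library's group and replicate number. The members and gene lists were chosen with earlier results of these data known, so no list is independent support.

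In edgeR 4.0.16 (R 4.3.3), filterByExpr left 7688 genes with 97.5% of all counts, and CPM used TMM-scaled library sizes. DT and PBS were compared by the quasi-likelihood test, robust, two-sided, with Benjamini-Hochberg adjustment over all tested genes and a threshold of 0.05. SEs were derived from fold changes and F statistics. Class medians and sums were given no test. Members named were the immune genes, their counterparts, those past the threshold in any fit, and the 3 best-read and the 1 with the smallest p of each role. Psma5, Psma6, Psma7, Psmb2 and Psmd7 were named outside this rule, with values known. Alternatives were upper quartile or RLE factors, no filter, an average log2 CPM of at least 8, DESeq2 1.42.0, and limma-voom 3.58.1 with sample weights. Further ones were a replicate block, Y-linked reads or macrophage markers as covariates, and leaving out each library. The Y-linked covariate was the presence or absence of such reads. The macrophage covariate was the log2 of the summed marker CPM plus 1. The edgeR script was run on simulated counts with changes only in genes at an average log2 CPM of at least 8. That run does not cover members with fewer reads. Near-identical 3′ ends (95% over 80% of 200 bases) were sought with minimap2 in GENCODE transcripts on GRCm38. They were found for 7 of 48 members: Psma4, Psma5, Psmd2, Psmd11 and Psme1, beside Psmb7 and Psme2. Promoters came from RefSeq.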

Additional observations from a re-analysis of the deposited data

Results flagged for a closer look

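In the PBS group, 8 of 51 checked values had 1 library far from the other 3. The measure is the gap to the nearest other library as a share of the whole range of the group. The number expected by chance, 2.55, assumes independent values from a normal distribution, which counts with many values of 0 are not. Where 3 libraries are at 0, the share is 1 at any level of the library with reads. The 8 values are therefore listed without a comparison to chance. In 6 of them 1 library was read where the others were at or near 0. The share was 1 for Psmb9 (44.6 CPM in PBS 4), Psmf1 (77.7 CPM in PBS 2), Psmg1 (14.9 CPM in PBS 4) and Psmg2 (89.5 CPM in PBS 2), with the other 3 at 0 CPM. It was 0.970 for Psmb5, with 13.0 CPM in PBS 4 against 0.386 CPM in the next library. For Psmd9 it was 0.983, with 66.3 CPM in PBS 1 against 1.15 CPM. In the remaining 2, PBS 3 was low: Psma1 was at 16.8 CPM against 130 CPM in the next library (0.930), and Psmb3 was at 57.6 CPM against 200 CPM (0.842).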

How the results depend on the processing

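No member was called by edgeR with RLE or upper quartile factors, without a filter, with the filter at 8, with the macrophage covariate or without any 1 library. The single calls were those of Psma3 by DESeq2 and of Psmd14 with the replicate block (log2 fold change 9.84, edgeR adjusted p = 0.0393). Replicate 4 exists only in PBS, so PBS 4, where Psmd14 had 289 counts, does not inform the difference in the block fit. The replicate numbers share only a number: over 733 genes, deviations from group means correlated at -0.0600 to 0.0251 between libraries of the same number, with 0 of 3 pairs above 0.1 and 1 DT library closest to its own. Over all genes, 0 were called higher and 3 lower. This became 1 and 7 with no filter, 29 and 82 by DESeq2, 15 and 6 by limma-voom and 6 and 6 with the block. With the Y-linked covariate 23 were higher, and with the filter at 8, where 3 members remain and no core or immune gene has a value, 5 were lower. Without 1 library, 0 to 1 were higher and 1 to 4 lower. PBS 2 to 4 have no Y-linked reads, so they do not inform the difference in the fit with the Y-linked covariate. Its values below set the DT libraries against PBS 1 alone and are given as effect sizes only. The immune median of 1.01 was 1.93 by limma-voom, 1.79 with the block and 2.85 with the Y-linked covariate. The regulatory median of 0.022 was 0.38 with the Y-linked covariate and between -0.43 and 0.076 without 1 library, and it was just below 0 with RLE or upper quartile factors, no filter, the filter at 8 and DESeq2. The median of all members, 0.35, was -0.018 with the filter at 8 and 0.71 with the Y-linked covariate. The core median of 0.50 was 0.020 with the macrophage covariate. The log2 differences of summed CPM, 0.35 for all members, 0.56 for core, 0.76 for immune and 0.16 for regulatory genes, were above 0 under each scaling and, without 1 library, at 0.30 to 0.41, 0.45 to 0.76, 0.56 to 0.89 and 0.058 to 0.25. Of the 36 members whose fold changes are given, 16 kept their sign under every alternative in which they had a value. The sign turned with the macrophage covariate for Psma2 (-0.13), Psma6 (-0.34), Psmb2 (-0.20), Psmb3 (-0.054), Psmb6 (-0.13), Psmd10 (2.99), Psmd8 (-0.21), Psme2 (0.36), Psme3 (0.99) and Psmg3 (4.06). The sign turned by limma-voom for Psmb2 (-1.10), Psmb3 (-0.085), Psmb4 (0.10), Psmc3 (-0.16), Psmd1 (0.0072), Psmd10 (3.02), Psme3 (0.60) and Psmg3 (0.76). The sign turned with the Y-linked covariate for Psmb3 (-0.096), Psmb4 (0.32), Psmc3 (-0.0097), Psmd1 (0.46), Psmd5 (9.15), Psme4 (-0.017), Psmg3 (0.49) and Psmg4 (9.63). Psmd5 and Psmg4 had 0 counts in PBS 1, the only PBS library that informs that fit. The sign turned with the replicate block for Psma6 (-0.030) and Psmb2 (-0.15). For Psmd8 (0.022) it also turned with RLE (-0.0010), upper quartile factors (-0.0041), the filter at 8 (-0.018) and DESeq2 (-0.0011), and for Psmb2 (0.020) with upper quartile factors (-0.013). Without 1 library it turned for 16 of the 36, with ranges of -0.015 to 0.99 for Psma2, -0.17 to 0.85 for Psma6, -0.57 to 1.01 for Psmb1, -0.51 to 0.63 for Psmb2, -0.23 to 0.40 for Psmb3, -0.43 to 0.16 for Psmb4, -0.090 to 0.89 for Psmb6, -0.51 to 1.04 for Psmb7, -0.48 to 0.53 for Psmc3, -0.62 to 0.076 for Psmd1, -1.43 to 0.47 for Psmd10, -0.47 to 0.74 for Psmd2, -0.17 to 0.19 for Psmd8, -0.86 to 0.43 for Psme2, -0.59 to 0.48 for Psme3 and -0.35 to 11.27 for Psmg2. Except where fewer genes were used or fewer libraries inform the difference, the cause was not tested. Counts of 0 limit what these libraries can show for members below 200 CPM, the level from which no member value was 0.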
